A study of Drosophila melanogaster with 2 samples.

Results

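Medulla neuroblasts (NBs) with a high level of mitotic transcripts were compared with those with a low level. Of the 11891 cells in 2 single-cell libraries, 2171 NBs were kept, and 1086 of them form the comparison: 543 high-score NBs (109 in experiment 1 and 434 in experiment 2) and 543 low-score NBs (109 and 434). An NB was kept if it had at least 1 UMI (unique molecular identifier, which marks 1 captured RNA molecule) of dpn, at least 1 UMI of mira, under 10% of its UMIs on mitochondrial genes, at least 5000 UMIs in all and under 500 CPM (counts relative to 1000000 UMIs of the cell or sum) of gcm. The 5 deepest cells were left out. Each NB was given a mitotic score, the summed CPM of CycA, CycB, CycB3, polo and aurB, and the groups were chosen by this score as the top 25% and the bottom 25% within each library. Both libraries hold cells sorted by flow cytometry from brains of wandering larvae of the third instar, 120 larvae pooled per experiment, raised at 25 °C without treatment. All larvae, and so both groups, carried E(spl)mγGFP, which is on in all NBs, and SoxNGal4 driving UAS-RedStinger, which is on in all medulla cells, over the balancer TM6B, and cells positive for both reporters were collected. The high-score and the low-score NBs therefore differ in no genotype, treatment or time, and the library pools animals.

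Medulla NBs are the stem cells of the largest neuropil of the fly's optic lobe. They arise from a neuroepithelium, divide asymmetrically many times, and express a succession of temporal transcription factors as they age, from Hth and Opa through Ey and Slp to D, BarH and Tll. Mitotic regulators are transcribed before division and their products are largely destroyed at its end, so their transcripts mark where a cell stands in its cycle. CycA, CycB and CycB3 encode the cyclins that drive Cdk1 into and through mitosis, polo encodes the kinase of mitotic entry and spindle assembly, and aurB encodes the kinase of the chromosomal passenger complex.

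The files held 42618478 UMIs in 6548 cells in experiment 1 and 116712060 UMIs in 5343 cells in experiment 2. The filter on dpn and mitochondrial genes left 777 and 2302 cells, and the additional limits left 435 and 1736 NBs. The libraries shared 9 cell barcodes, none of them among the high-score and low-score NBs. Scrublet called 0 and 2 doublets, too few for a working doublet call, and counts without the cells of the most UMIs are therefore given further on. Cells of 1 library are not replicates, and p-values rest on 4 sums, 1 per group and library.

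The score was continuous, with no gap at either limit. The median score of high-score NBs was 1880 CPM in experiment 1 and 1985 CPM in experiment 2, against 966 and 1079 CPM in low-score NBs. Experiment 1 had its limit for the high group at 1691.5 CPM, between an NB inside at 1691.8 and one outside at 1691.2 CPM, and its limit for the low group at 1157.1 CPM (inside 1155.5, outside 1158.6). In experiment 2 these limits were 1748.8 CPM (inside 1748.9, outside 1748.8) and 1233.4 CPM (inside 1233.0, outside 1233.5). Within 10% of a limit lay 105 and 420 NBs for the high group and 88 and 409 NBs for the low group, between 20.2% and 24.2% of the NBs of a library. The groups are thus the ends of a range of this score, and whether they hold the same cell types cannot be read from it.

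**Figure D1:**
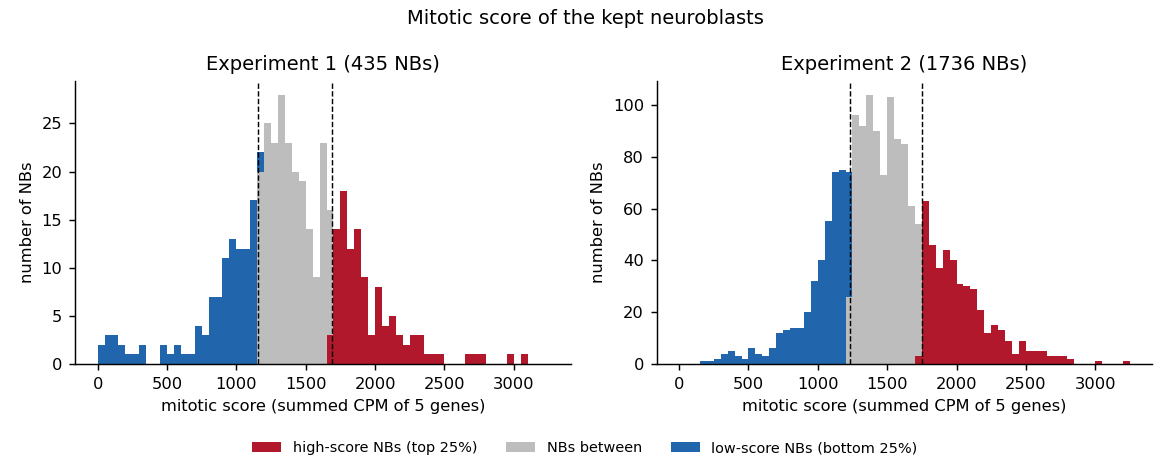
Number of NBs (vertical axis) by mitotic score in bins of summed CPM (horizontal axis) in experiment 1 (left, 435 NBs) and experiment 2 (right, 1736 NBs). Red bars are the high-score NBs (top 25%), grey bars the NBs between and blue bars the low-score NBs (bottom 25%), and dashed lines mark the limits (1691.5 and 1157.1 CPM on the left, 1748.8 and 1233.4 CPM on the right), which fall within a single continuous distribution.

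The rule's own genes describe the groups and were given no test. CycB summed to 391 and 442 CPM in high-score NBs of experiments 1 and 2, against 175 and 230 CPM in low-score NBs. The polo level was 292 and 301 CPM in high-score NBs, against 173 and 200 CPM in low-score NBs. CycA (475 and 427 CPM against 214 and 201 CPM), CycB3 (268 and 316 against 121 and 150 CPM) and aurB (474 and 517 against 229 and 238 CPM) had the same order. This order of CycB and polo follows from the rule and is no check of the label. Low-score NBs kept mitotic transcripts, and the median NB had 388 and 441 CPM of CycB in the high group, against 153 and 227 CPM in the low group. Of the genes that chose the NBs, mira was at 1012 and 929 CPM in high-score NBs, against 540 and 471 CPM in low-score NBs, dpn at 460 and 459 CPM, against 266 and 331 CPM, and gcm at 5.30 and 8.20 CPM, against 8.16 and 4.02 CPM. When NBs were grouped on a random 50% of their UMIs, the score in the other UMIs had medians of 1630 and 1860 CPM in the high group, against 1139 and 1168 CPM in the low group, a smaller gap than in the UMIs used for grouping (1986 and 2033 CPM, against 815 and 1032 CPM).

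Depth and age moved with the score. High-score NBs had median totals of 20905 and 38829.5 UMIs, against 19036 and 59139 UMIs in low-score NBs, so the order of the groups turned round between experiments. Mitochondrial genes took a median of 4.34% and 4.46% of UMIs in high-score NBs, against 4.74% and 5.41% in low-score NBs. NBs were assigned to the temporal stage whose factors had the highest summed CPM: early (hth, dmrt99B, opa, erm, ey), middle (slp1, slp2) or late (D, B-H1, B-H2, tll). Early NBs made up 20.2% and 13.6% of the high-score NBs, against 53.2% and 38.7% of the low-score NBs. Late NBs made up 48.6% and 46.8% of the high-score NBs, against 21.1% and 19.4% of the low-score NBs, and middle NBs 31.2% and 38.7%, against 22.9% and 41.7%. Because the groups differ in stage in both libraries, the fit was also made with the top and bottom 25% taken within each stage, and its values stand beside those of all NBs.

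Across all genes, 1294 genes were higher in high-score NBs (17.8% of the 7263 tested) and 1363 were lower (18.8%) at an adjusted p under 0.05 in edgeR's quasi-likelihood test with the library as a block and Benjamini-Hochberg adjustment. Of the 2657 genes called, 2607 had the same sign in both libraries. The median log2 fold change was 0.38 over the higher genes, -0.80 over the lower genes and -0.02 over all genes tested. At least a 2-fold change was found for 72 higher and 614 lower genes, so the lower genes include many more with a large change. Taken within stage, 864 genes were higher (11.7% of 7361) and 920 lower (12.5%). They include 793 of the 1294 higher and 807 of the 1363 lower genes. Of the 6 combinations of stage and library, all 6 had the direction of the whole for 844 of the higher genes (65.2%) and for 440 of the lower genes (32.3%). Without the library block no gene passed, with 1097 at an unadjusted p under 0.05.

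Regulators of mitotic entry that were not part of the score were higher in high-score NBs, 9 of 14 tested and none lower, with a median log2 fold change of 0.30 against -0.02 over all genes. The gene furthest apart was stg (FBgn0003525), the Cdc25 phosphatase that removes the inhibitory phosphate from Cdk1. It summed to 1152 and 1345 CPM in high-score NBs, against 400 and 369 CPM in low-score NBs. Both high sums were more than 2-fold above both low sums, and the log2 fold change was 1.62 (SE 0.08, adjusted p = 3.23e-30). Within stage it was 1.32 (adjusted p = 7.02e-07), and stg was higher in 6 of 6 combinations of stage and library. The other Cdc25 gene, twe, was much less abundant, at 8.42 and 12.4 CPM in high-score NBs, against 5.17 and 5.72 CPM in low-score NBs (log2 fold change 0.92, SE 0.25, adjusted p = 0.0021). In cells thinned to 5000 UMIs twe was at -0.07.

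Other regulators act through the kinase Aurora A. The activator bora was at 47.4 and 59.1 CPM in high-score NBs, against 18.2 and 21.7 CPM in low-score NBs (log2 fold change 1.34, SE 0.11, adjusted p = 7.31e-19). The gene of the kinase itself, aurA, was at 40.8 and 44.4 CPM, against 24.7 and 25.9 CPM (0.67, SE 0.11, adjusted p = 1.71e-07). Cdk1, the kinase of mitotic entry, was at 310.5 and 345 CPM in high-score NBs, against 221 and 232 CPM in low-score NBs (0.45, SE 0.07, adjusted p = 1.58e-07), and its inhibitory kinase Wee1 also rose (0.45, SE 0.11, adjusted p = 0.00097). The groups did not overlap for any of these genes, as was the case in the higher direction for 26.6% of all tested genes. The second inhibitory kinase, Myt1, did not pass (-0.12, SE 0.20, adjusted p = 0.68), and neither did the Cdk1 subunits Cks85A (-0.18) and Cks30A (0.03), Cdk7 (0.17) or the phosphatase subunit tws (0.00). Within stage 6 of the 14 were higher.

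Most genes of the kinetochore, the spindle checkpoint and the anaphase-promoting complex were higher in high-score NBs, and none of those tested was called lower. Of 11 kinetochore and centromere genes tested, 10 were higher (median log2 fold change 0.51), led by cid, the centromeric histone H3 variant, with 43.6 and 54.0 CPM in high-score NBs, against 20.7 and 23.3 CPM in low-score NBs (log2 fold change 1.09, SE 0.11, adjusted p = 1.32e-14). Its loading factor cal1 rose by less, with 156 and 136 CPM against 107 and 90.8 CPM (0.49, SE 0.06, adjusted p = 1.06e-09). Of the proteins that join the kinetochore to microtubules, Spc25 had a log2 fold change of 0.66 (SE 0.07), Ndc80 of 0.62 (SE 0.08) and Mis12 of 0.60 (SE 0.09). Only Nnf1b did not pass, at 20.0 and 18.7 CPM against 15.0 and 21.8 CPM. The other 3 members of the chromosomal passenger complex were all higher. Borealin (borr) was at 316 and 372 CPM in high-score NBs, against 144 and 175 CPM in low-score NBs (1.02, SE 0.07, adjusted p = 2.76e-22), the survivin gene Det at 184 and 258 CPM against 120 and 152 CPM (0.62, SE 0.07), and Incenp at 328 and 398 CPM against 216 and 254 CPM (0.55, SE 0.07). These 3 genes kept their call within stage.

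Of the 9 spindle checkpoint genes 7 were higher, with a median of 0.52, and the same number within stage. Zw10 (86.4 and 113 CPM in high-score NBs, against 50.8 and 67.9 CPM in low-score NBs, log2 fold change 0.66, SE 0.07, adjusted p = 1.55e-12) and Zwilch (0.60, SE 0.10) belong to the complex that brings dynein to kinetochores. The checkpoint kinase Mps1 had few UMIs, 16.8 and 19.6 CPM against 8.43 and 13.0 CPM (0.61, SE 0.17, adjusted p = 0.0034), and Bub3 more, 270.0 and 386 CPM against 179 and 249 CPM (0.54, SE 0.07). Bub1 (-0.16, SE 0.11, adjusted p = 0.24) and Mad1 (0.20, SE 0.11, adjusted p = 0.17) were not called. Of 13 tested subunits and regulators of the anaphase-promoting complex, the ubiquitin ligase that ends mitosis, 9 were higher (median 0.37). Its activator fzy, the fly Cdc20, was at 175 and 215 CPM in high-score NBs, against 105 and 124 CPM in low-score NBs (0.69, SE 0.07, adjusted p = 1.3e-14), and its ubiquitin-conjugating enzyme vih at 181 and 218 CPM against 128 and 155 CPM (0.41, SE 0.07). The later activator fzr rose by 0.46 (SE 0.11, adjusted p = 0.00019) and the subunit ida by 0.40 (SE 0.15, adjusted p = 0.030). Within stage 5 of the 13 passed, fzy and vih among them, and fzr (0.23, adjusted p = 0.12) and ida (0.33, adjusted p = 0.12) did not.

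Among spindle motors and microtubule factors 16 of 20 were higher (median 0.43). The kinesin-14 motor ncd led, at 269 and 331 CPM in high-score NBs, against 144 and 176 CPM in low-score NBs (log2 fold change 0.82, SE 0.07, adjusted p = 5.34e-18), followed by the kinesin sub of the central spindle (0.74, SE 0.07), the spindle assembly factor mei-38 (0.66, SE 0.13) and the kinesin-8 Klp67A (0.56, SE 0.08). The microtubule end-binding protein Eb1, which serves in all phases of the cycle, had 509 and 590 CPM in high-score NBs, against 464 and 530 CPM in low-score NBs, and was not called (0.07, SE 0.08, adjusted p = 0.57). All 13 centrosome genes were higher, with a median of 0.39. The centriole duplication factor ana2 was at 63.9 and 86.8 CPM, against 23.1 and 31.7 CPM (1.37, SE 0.09, adjusted p = 2.64e-23), well above the next member spd-2 (0.70, SE 0.08), Plp (0.59, SE 0.12) and ana3 (0.53, SE 0.18), while the pericentriolar scaffold gene cnn was at 117 and 81.1 CPM against 76.7 and 61.1 CPM (0.39, SE 0.07). Within stage 8 of 13 centrosome genes were called, ana2 at 1.34.

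Of 19 condensin, cohesin and chromatid separation genes 14 were higher (median 0.47), and 11 within stage. The condensin subunits Cap-D2 (88.5 and 100 CPM in high-score NBs, against 50.6 and 56.8 CPM in low-score NBs, log2 fold change 0.73, SE 0.07), glu (0.72, SE 0.07) and barr (0.58, SE 0.08), the cohesin subunit SA (0.59, SE 0.09) and topoisomerase II (Top2, 618 and 527 CPM against 401 and 361 CPM, 0.50, SE 0.08) all rose. The separase gene Sse did not pass (0.14, SE 0.15, adjusted p = 0.50) and neither did the condensin II subunits Cap-D3 (0.05) and Cap-H2 (0.24). In cytokinesis 8 of 14 were higher (median 0.24). They were the anillin gene scra (193 and 216 CPM against 110 and 120 CPM, 0.75, SE 0.07, adjusted p = 1.85e-16), tum (0.56, SE 0.07) and pav (0.51, SE 0.07) of the centralspindlin complex at the spindle midzone, the RhoGEF pbl (0.38, SE 0.07), the citron kinase gene sti and 3 septins. Profilin (chic, 2112 and 2392 CPM against 1989 and 2292 CPM, -0.00, SE 0.07), Rho1 (0.05) and the myosin genes zip (0.18) and sqh (0.14) did not pass. Nuclear envelope genes were higher in 8 of 10, from Ote (0.70, SE 0.07), Nup107 (0.47, SE 0.07) and baf (0.47, SE 0.08) to the lamin gene Lam (1354 and 1366 CPM against 978 and 1039 CPM, 0.35, SE 0.08).

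**Figure D2:**
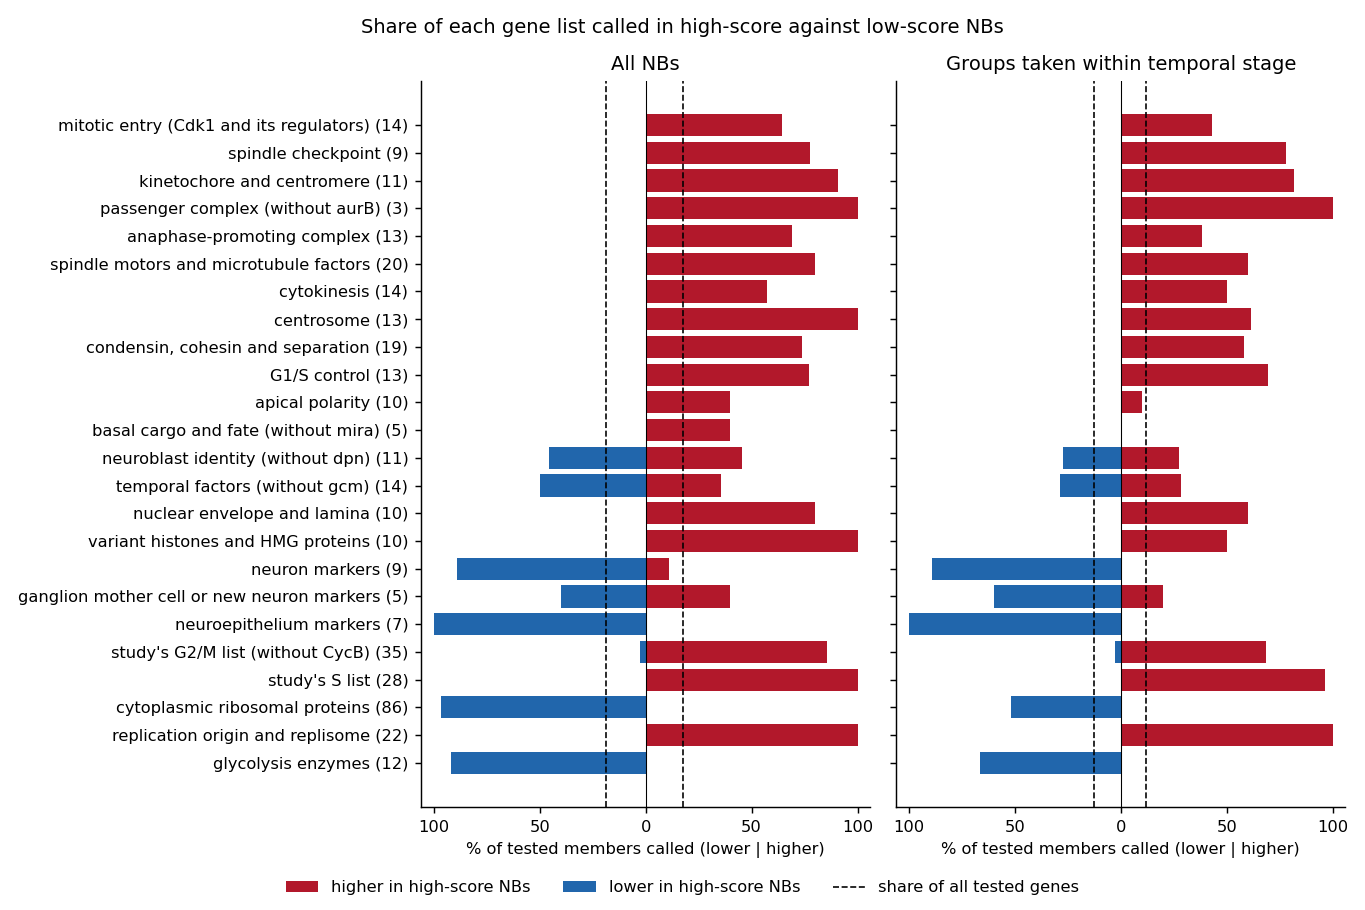
Percentage of the tested members of each gene list (number of members tested in all NBs in brackets) called higher in high-score NBs (red, to the right) or lower (blue, to the left), for groups from all NBs (left panel) and for groups taken within temporal stage (right panel). Dashed lines give the share of all tested genes, 17.8% higher and 18.8% lower in the left panel and 11.7% and 12.5% in the right panel, which the cell cycle lists pass on the right and the ribosomal, glycolysis, neuron and neuroepithelium lists on the left.

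The study's own cell cycle lists, which it used to assign phases to these cells, overlap with the lists above. Many G2/M genes, among them stg, Cdk1, fzy, scra and Top2, stand in both, so their counts are no separate result. Of its 35 tested G2/M genes other than CycB, 30 were higher and 1 lower (median 0.49), and of its 28 tested S genes all 28 were higher (median 0.77, range 0.31 to 1.61). The lower G2/M gene was pigs, named after its value was seen (16.8 and 12.1 CPM in high-score NBs, against 24.7 and 15.1 CPM in low-score NBs, log2 fold change -0.49, SE 0.17, adjusted p = 0.015). Within stage 27 of the 28 S genes and 24 of the 35 G2/M genes were higher. A score built from mitotic genes thus also separated the NBs by genes of DNA replication, which are needed in the phase before. RnrS (FBgn0011704), the small subunit of ribonucleotide reductase, led the S genes with 510 and 645 CPM in high-score NBs, against 168 and 190 CPM in low-score NBs (1.61, SE 0.08, adjusted p = 1.18e-30). Both high sums were more than 2-fold above the low sums. Claspin of the replication checkpoint (258 and 189 CPM against 120 and 82.7 CPM, 1.07, SE 0.07), the histone mRNA-binding protein Slbp (260 and 332 CPM against 136 and 142 CPM, 1.02, SE 0.07) and l(2)dtl, which directs the destruction of licensing factors (56.4 and 68.6 CPM against 32.9 and 30.8 CPM, 0.96, SE 0.10), followed.

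The replication machinery itself was read from a list of origin and replisome genes that was added after these results were seen, and all 22 tested members were higher, in all NBs (median 0.76) and within stage (median 0.77). Some members, among them PCNA, Orc1, dup and geminin, also stand in the S or the G1/S list. Orc1 (FBgn0022772), the largest origin recognition subunit, was at 105 and 126 CPM in high-score NBs, against 40.8 and 44.0 CPM in low-score NBs (log2 fold change 1.39, SE 0.08, adjusted p = 1.63e-28). The licensing factor dup, the fly Cdt1, was at 282 and 329 CPM against 118 and 118 CPM (1.31, SE 0.07), its inhibitor geminin at 457 and 452 CPM against 248 and 258 CPM (0.76, SE 0.08), Mcm10 at 68.0 and 77.1 CPM against 35.9 and 31.3 CPM (1.10, SE 0.09), Orc5 at 56.4 and 63.1 CPM against 22.8 and 28.7 CPM (1.09, SE 0.10) and the sliding clamp PCNA at 981 and 1172 CPM against 518 and 636 CPM (0.82, SE 0.08). Of 13 genes of G1/S control 10 were higher (median 0.64). The S-phase cyclin CycE was at 1511 and 1234 CPM in high-score NBs, against 944 and 741 CPM in low-score NBs (0.63, SE 0.08, adjusted p = 7.05e-11), whereas CycD (0.00, SE 0.09) and Cdk4 (0.22, SE 0.12) were not called. Taken by stage, CycE had a log2 fold change of 1.28 in early NBs (adjusted p = 7.7e-05) and of -0.07 in late NBs (adjusted p = 0.81), and the test of this difference passed (-1.35, SE 0.15, adjusted p = 0.0029). The transcription factor gene E2f1, which drives S-phase genes, was at 2239 and 1538 CPM against 1947 and 1472 CPM and was not called over all NBs (0.05, SE 0.08, adjusted p = 0.63). In groups cut within the early and the late stage, without middle NBs, E2f1 was higher in early high-score NBs (0.77, adjusted p = 0.00074). It was lower in late high-score NBs (-0.49, adjusted p = 0.014), and these differed (-1.26, SE 0.14, adjusted p = 0.0029). Whether they make up the value over all NBs was not tested. With a score of mean logs the difference between stages passed for neither CycE nor E2f1. Of the nucleotide supply, dnk, the deoxyribonucleoside kinase, was at 352 and 457 CPM against 125 and 161 CPM (1.42, SE 0.07, adjusted p = 1.1e-29).

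Other genes among the 12 with the largest rise were B-H1, CG11164, the chromatin genes Phf7 (1.16, SE 0.08) and Chd3 (1.12, SE 0.08), and Rab14, a small GTPase of vesicle traffic. Rab14 was at 334 and 456 CPM in high-score NBs, against 142 and 193 CPM in low-score NBs (1.16, SE 0.07), but 0.47 within stage, while Phf7 (1.19), Chd3 (1.15) and CG11164 (1.25 in all NBs, 1.14 within stage) held their size. Variant histones and HMG-box proteins, among the most abundant chromatin transcripts, were higher in 10 of 10 (median 0.35) and in 5 of 10 within stage. The HMG-box gene HmgD was at 10475 and 12502 CPM in high-score NBs, against 6346 and 7965 CPM in low-score NBs (0.61, SE 0.06, adjusted p = 2.63e-13), and 0.34 within stage. The H3.3 gene His3.3B (0.55, SE 0.06) was at 0.15 within stage, where it was not called (adjusted p = 0.12), His2Av was at 0.42 (SE 0.07) and HP1c at 0.38 (SE 0.07). His3.3A and His3.3B encode the same protein, and how reads were divided between them was not checked.

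Over 4 bins of the score, each holding 25% of the NBs of a library, the higher genes mostly formed a slope. From the lowest to the highest bin stg was at 400, 696, 774 and 1152 CPM in experiment 1 and at 369, 611, 837 and 1345 CPM in experiment 2. RnrS (168, 243, 305 and 510 CPM, and 190, 289, 412 and 645 CPM) and borr (144, 211, 222 and 316 CPM, and 175, 246, 300.4 and 372 CPM) had the same shape. A rise at each step in both libraries was found for 560 of the 1294 higher genes (43.3%), against 9.09% of all tested genes, and a fall at each step for 206 of the 1363 lower genes (15.1%), against 3.02%. The early factor hth did not form an even slope. In experiment 2 it stood apart in the lowest bin, at 141, 7.57, 4.37 and 2.72 CPM. In experiment 1 the second bin was still raised, at 222, 68.0, 20.5 and 25.3 CPM.

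**Figure D3:**
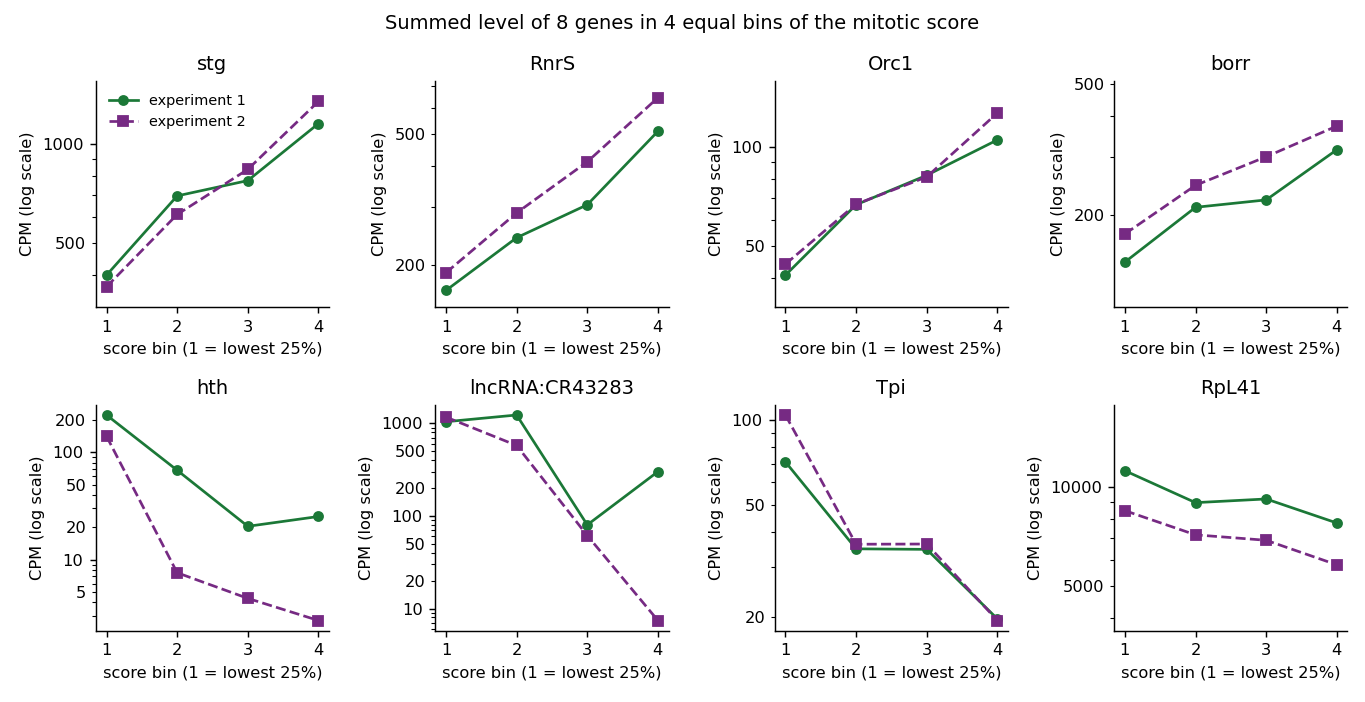
Level in CPM of summed UMIs (vertical axis, log scale) in the 4 bins of the mitotic score (horizontal axis, 1 is the lowest) for 8 genes, with experiment 1 as circles and experiment 2 as squares and 1 sum per point. stg, RnrS, Orc1 and borr climbed at each step in both experiments, whereas RpL41 had a flatter course. In experiment 2 hth dropped mainly between bins 1 and 2 (141 to 7.57 CPM). In experiment 1 hth fell from 222 to 68.0 CPM there and dropped further after bin 2.

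Genes of the neural stem cell state went in both directions. Of the 11 NB identity genes other than dpn, 5 were higher and 5 lower. These counts depended on the setting, with 3 and 3 within stage and 5 and 1 with DESeq2. Without the NBs highest in neuron and neuroepithelium markers 4 were higher and 2 lower, and E(spl)mdelta-HLH reversed to 1.29. E(spl)mgamma-HLH, the Notch target whose reporter was used in the sort, was at 1147 and 1040 CPM in high-score NBs, against 531 and 577 CPM in low-score NBs (log2 fold change 0.90, SE 0.08, adjusted p = 2.5e-16) and stayed higher within stage (0.61). E(spl)m8-HLH (0.52), klu (0.35), wor (0.33) and N (0.24) also rose in all NBs, and ase was not called, at 95.4 and 117 CPM against 81.8 and 112 CPM (0.03, SE 0.07, adjusted p = 0.77). SoxN, whose Gal4 line marked the sorted cells, was at 351 and 293 CPM against 493 and 427 CPM (-0.59, SE 0.08, adjusted p = 9.49e-10). The low-level genes grh (2.18 and 1.51 CPM against 5.44 and 7.14 CPM, -2.08, SE 0.38, but -0.24 with an adjusted p of 0.69 without the NBs highest in neuron and neuroepithelium markers, described further on), esg (9.35 and 7.73 against 11.4 and 19.5 CPM, -1.15, SE 0.20) and E(spl)mdelta-HLH (-0.87, SE 0.33, adjusted p = 0.031) were lower, the last with overlapping groups, and sna was at -0.47 (SE 0.10).

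Asymmetric division draws on apical polarity proteins and on cargo that is sorted to the basal daughter. Of 10 polarity genes (the apical list, which also holds l(2)gl, dlg1 and scrib) 4 were higher. Of 5 basal genes other than mira 2 were higher, against 17.8% of all tested genes. Within stage 1 of 10 and 0 of 5 were higher, against 11.7%, so these lists did not stand out from all genes there. insc, which links polarity to the spindle, stood out with 87.9 and 115 CPM in high-score NBs, against 52.7 and 52.5 CPM in low-score NBs (log2 fold change 0.93, SE 0.08, adjusted p = 2.87e-18) and was the only one called within stage (0.46, adjusted p = 0.00085). Its partners Galphai (0.38, SE 0.08), pins (0.36, SE 0.09) and baz (0.21, SE 0.07) rose in all NBs, and baz was at -0.02 within stage. aPKC (0.08), par-6 (-0.02) and scrib (-0.13) were not called. Of the 5 basal genes other than mira, numb, the Notch inhibitor, was at 412 and 376 CPM against 267 and 248 CPM (0.53, SE 0.08, adjusted p = 6.28e-09) and its partner pon at 59.2 and 54.9 CPM against 44.0 and 40.1 CPM (0.36, SE 0.09), but neither was called within stage (numb 0.04, adjusted p = 0.75, and pon 0.15, adjusted p = 0.22). pros was at 891 and 744 CPM against 1962 and 430 CPM, in opposite order in the 2 experiments (-0.24, SE 0.14, adjusted p = 0.16), and brat (0.15) and stau (0.01) were not called.

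Temporal factors differed between the groups in both directions. Of 14 tested, 5 were higher and 7 lower in high-score NBs. The late factors B-H1 (FBgn0011758), at 81.7 and 98.8 CPM in high-score NBs, against 25.3 and 15.4 CPM in low-score NBs (log2 fold change 2.32, SE 0.10, adjusted p = 2.16e-33), and its neighbour paralogue B-H2, at 50.8 and 44.9 CPM against 8.70 and 5.80 CPM (2.76, SE 0.14, adjusted p = 7.07e-31), showed the largest rises of the list. scro, the factor of middle and late NBs, was at 706 and 662 CPM against 381 and 425 CPM (0.68, SE 0.08) in all NBs and at 0.12 (adjusted p = 0.29) within stage. The early factors hth (-4.64, SE 0.15), erm (-1.22, SE 0.17), dmrt99B (-0.91), opa (-0.75) and ey (-0.60) were lower. Within stage erm was at 0.03, opa at 0.53 and ey at 0.75. Most of these factors also defined the stage classes. For them neither a match with the stage shares nor the values within stage are an independent result.

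**Figure D4:**
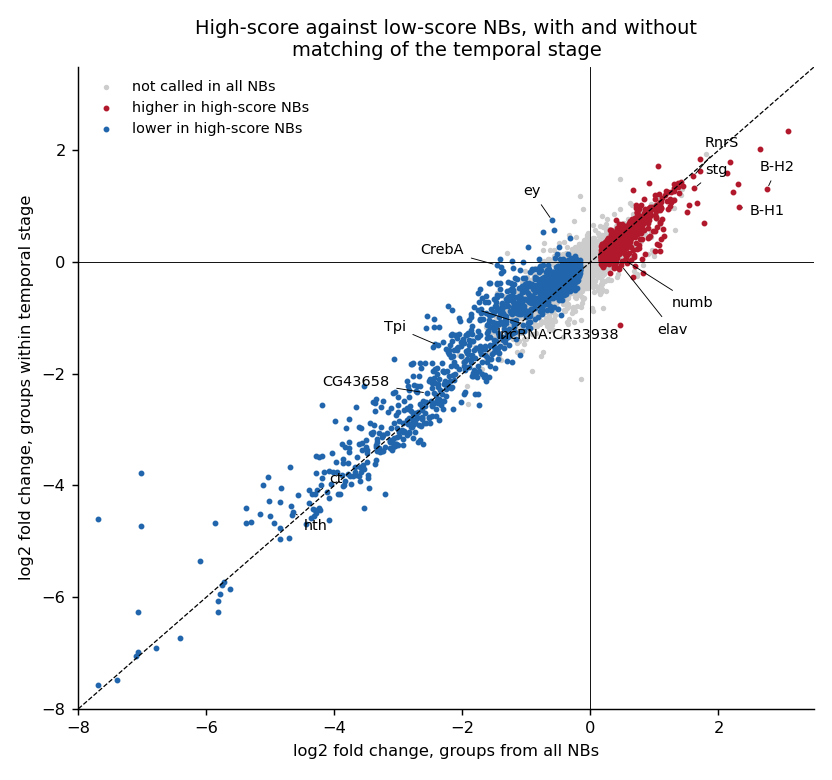
Log2 fold change of high-score over low-score NBs for groups taken within temporal stage (vertical axis) against that for groups from all NBs (horizontal axis), 1 point per tested gene, red for genes higher and blue for genes lower in all NBs, grey for genes not called, with the dashed line where both are equal. stg (1.62 and 1.32) and RnrS (1.61 and 1.54) lie near the line, whereas numb (0.53 and 0.04), CrebA (-1.47 and -0.05) and B-H1 (2.32 and 0.98) shrink within stage.

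The genes with the largest fall in high-score NBs came from a minority of the low-score NBs. hth (FBgn0001235), the factor of the youngest NBs and of neuroepithelium, was at 25.3 and 2.72 CPM in high-score NBs, against 222 and 141 CPM in low-score NBs (log2 fold change -4.64, SE 0.15, adjusted p = 3.05e-43). The 10% of low-score NBs with the highest CPM of hth held 80.9% and 95.2% of its UMIs. The homeodomain gene ct was at 20.6 and 0.888 CPM, against 135 and 64.2 CPM (-4.30, SE 0.19), with 72.2% and 96.3% in the 10% of cells highest in it. lncRNA:CR43283 was at 301 and 7.42 CPM, against 1043 and 1171 CPM (-4.32, SE 0.38, adjusted p = 4.8e-17), with 95.8% and 99.9%. The Bearded family gene E(spl)m4-BFM was at 37.4 and 2.04 CPM, against 57.4 and 79.0 CPM (-3.13, SE 0.26), and 99.1% and 100% of its low-score UMIs lay in the top 10% of cells, in experiment 2 in 36 cells. The corresponding 10% of cells held 18.0% and 26.1% of stg UMIs and 18.2% and 13.6% of CycB UMIs, where an even spread would give about 10%. Cells were ranked by the gene's own CPM, so sampling alone can raise the share in genes with few UMIs. These sums cannot tell a change in many cells from a change in few, and the shares show that for hth, ct, lncRNA:CR43283 and E(spl)m4-BFM few cells carried the level.

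**Figure D5:**
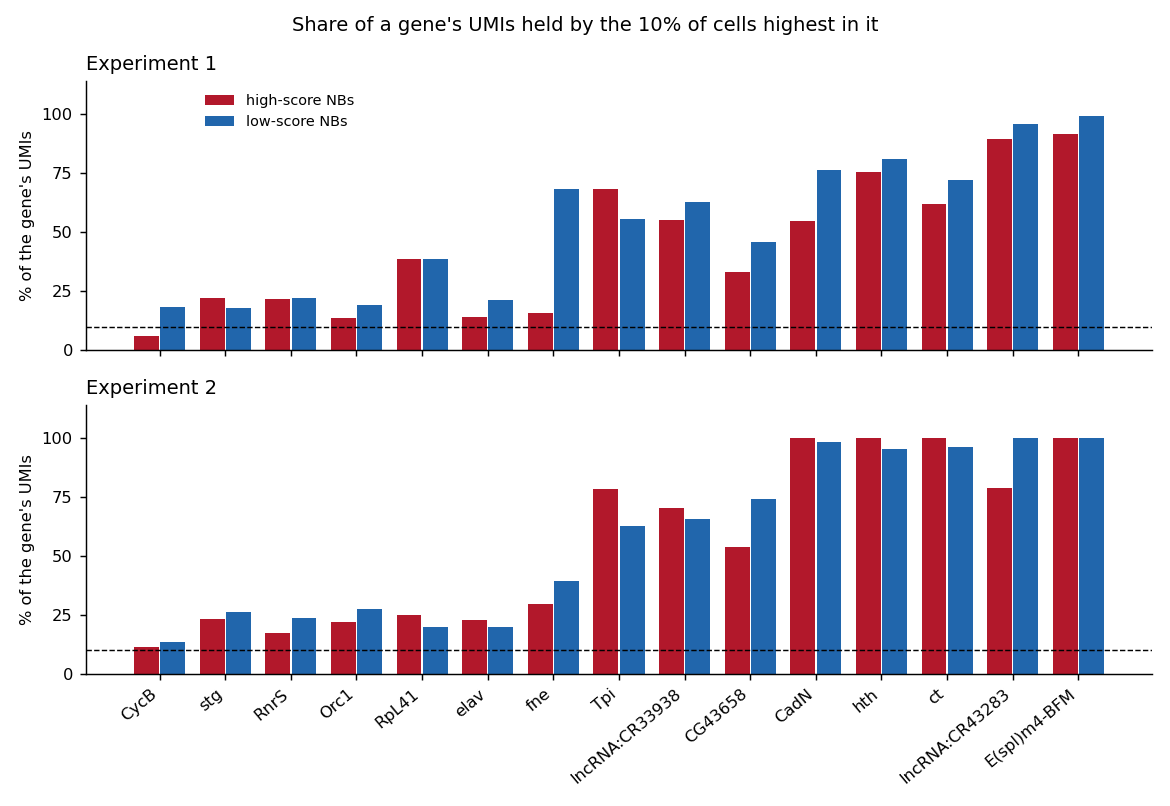
Percentage of a gene's UMIs (vertical axis) held by the 10% of cells highest in that gene, in high-score NBs (red) and low-score NBs (blue), for 15 genes (horizontal axis) in experiment 1 (top) and experiment 2 (bottom), with a dashed line at 10%. CycB, stg, RnrS and Orc1 lie between 6.06% and 27.5%, and hth, ct, lncRNA:CR43283 and E(spl)m4-BFM at 62.1% or more. A bar at 100% means that no more than 10% of the cells had a UMI. Sampling alone can raise the share in genes with few UMIs.

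Most markers of neurons and of neuroepithelium were lower in the sums of high-score NBs. Whether the cells that held hth or ct also held these markers was not tested. Of 9 neuron markers 8 were lower in high-score NBs (median -2.93) and elav was higher (1231 and 954 CPM in high-score NBs, against 833 and 649 CPM in low-score NBs, log2 fold change 0.48, SE 0.08, adjusted p = 2.8e-07). Within stage no neuron marker was called higher, elav included. None of the markers was at 0 in every sum. Their summed level was 1465 and 1056 CPM in high-score NBs, against 1713 and 855 CPM in low-score NBs, and the highest single cells reached 4238 and 5246 CPM, against 21856 and 11326 CPM. The median cell went the other way, with 1584 and 1008 CPM of neuron markers in high-score NBs, against 1464 and 736 CPM in low-score NBs. fne was at 194 and 97.5 CPM, against 620.1 and 144 CPM (-1.16, SE 0.09), and CadN at 13.7 and 2.92 CPM, against 86.4 and 10.3 CPM (-2.31, SE 0.17). All 7 neuroepithelium markers were lower (median -3.74), with a summed level of 120 and 74.4 CPM, against 258 and 203 CPM. The median cell had 115 and 57.3 CPM of these markers in high-score NBs, against 143 and 44.4 CPM in low-score NBs. Among them Ocho was at 1.87 and 0.104 CPM (6 and 2 UMIs), against 32.6 and 50.6 CPM, pnt at 4.36 and 0.522 CPM, against 25.0 and 37.3 CPM, and shg, the E-cadherin gene, at 103 and 71.2 CPM, against 112 and 76.1 CPM (-0.19, SE 0.07, adjusted p = 0.022). Of 5 markers of ganglion mother cells or new neurons 2 were higher (tap, 0.47, and nerfin-1, 0.57) and 2 lower (fne and E(spl)m6-BFM), with a summed level of 334 and 233 CPM, against 728 and 239 CPM. The direction of nerfin-1 turned in some settings, given at the end. Glia markers summed to 485 and 479 CPM, against 400 and 444 CPM, with neither of the 2 that could be tested called (nrv2 and Obp44a). Haemocyte markers summed to at most 0.624 CPM in any group, with NimC1 and He at 0.

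The lead counts were therefore taken again without the 10% of NBs in each library highest in neuron markers and the 10% highest in neuroepithelium markers, which leaves 90 and 358 NBs in each group. There 607 genes were higher (8.77% of 6925) and 661 lower (9.55%). Of the neuron markers 1 of 8 was still lower and elav was called higher (0.37), and of the neuroepithelium markers 0 of 6 were lower. These 2 lists chose the NBs left out, so the loss of their lower calls largely follows from the setting. No member of a cell cycle list was lower, and the lists lost calls to different extents. Higher were 22 of 22 origin and replisome genes, 27 of 28 S genes, 9 of 13 G1/S genes, 3 of 3 passenger genes, 8 of 11 kinetochore genes, 21 of 34 G2/M genes, 11 of 19 condensin, cohesin and separation genes, 5 of 9 checkpoint genes and 9 of 20 spindle genes. Fewer passed in the other lists, with 5 of 13 centrosome genes, 5 of 14 mitotic entry genes, 4 of 13 genes of the anaphase-promoting complex and 4 of 14 cytokinesis genes. Of the lower lists, 83 of 86 ribosomal genes (median -0.36) and 8 of 11 glycolysis enzymes (median -0.48) were lower. Tpi was at -1.56, CG43658 at -1.75, CrebA at -1.47 and nkd at -1.21, all still called. E(spl)m4-BFM reversed to 1.96, and hth was at -3.07 (adjusted p = 0.0023). Without the 10% of NBs with the most UMIs, 606 genes were higher (8.65% of 7006) and 616 lower (8.79%), and with groups taken within stage and 5 classes of total UMIs 647 were higher (8.7% of 7437) and 719 lower (9.67%). In cells thinned to 5000 UMIs, where 2.8% of 5717 genes were higher, the mitotic lists kept positive medians but few calls: 1 of 11 kinetochore genes (median 0.24), 1 of 9 checkpoint genes (0.31), 1 of 12 genes of the anaphase-promoting complex (0.17), 2 of 13 centrosome genes (0.38), 3 of 14 mitotic entry genes (0.11) and 4 of 20 spindle genes (0.21). Of the replication lists, 12 of 22 origin and replisome genes (0.42) and 14 of 28 S genes (0.42) were called there. With DESeq2 (429 genes higher in all), these 6 mitotic lists had 9, 4, 2, 2, 4 and 9 members higher, in the same order. At a mitochondrial limit of 20% (193 higher in all) they had 3, 1, 0, 2, 2 and 7. The replication lists had 19 of 22 and 24 of 28 with DESeq2, and 9 of 22 and 14 of 29 at 20%. All these medians stayed positive.

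Other lower genes belonged to metabolism and translation. Of 12 glycolysis enzymes, a list added after these results were seen, 11 were lower (median -0.75) and 8 of them within stage. Triose phosphate isomerase (Tpi, FBgn0086355) was at 19.6 and 19.4 CPM in high-score NBs, against 71.0 and 104 CPM in low-score NBs (log2 fold change -2.38, SE 0.10, adjusted p = 3.88e-36). Both low sums were more than 3-fold above both high sums. Within stage Tpi was at -1.49 and lower in 6 of 6 combinations of stage and library, and 55.6% and 62.6% of its low-score UMIs lay in the top 10% of the cells. Aldolase (Ald) was at 9.04 and 12.8 CPM, against 40.8 and 57.2 CPM (-2.25, SE 0.12), Gapdh1 at 34.9 and 35.7 CPM, against 87.5 and 94.5 CPM (-1.47, SE 0.08) and enolase (Eno) at 335 and 383 CPM, against 487 and 664 CPM (-0.75, SE 0.08), while pyruvate kinase (PyK) was not called (-0.15, SE 0.07, adjusted p = 0.069). Gapdh1 has a close paralogue, Gapdh2 (-0.75, SE 0.07), and how reads were divided between them was not checked.

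Cytoplasmic ribosomal protein genes were lower in 83 of 86 tested, with a median of -0.34, and none was higher. Their summed level was 254019 and 244716 CPM in high-score NBs, against 298998 and 299081 CPM in low-score NBs. RpL41 was at 7765 and 5800.0 CPM, against 11180.4 and 8463 CPM (log2 fold change -0.61, SE 0.06, adjusted p = 2.56e-13), RpS2 at 3279 and 3453 CPM, against 4365 and 4751 CPM (-0.51, SE 0.07) and RpL24-like, a ribosome assembly factor, at 127 and 156 CPM, against 176 and 208 CPM (-0.52, SE 0.07). The paralogue RpS19b, at 11.8 and 12.9 CPM, against 26.1 and 32.1 CPM, had the lowest ratio (-1.36, SE 0.14). In contrast to hth, RpL41 was spread over cells, and the top 10% of low-score NBs held 38.5% and 19.9% of its UMIs. The number of lower ribosomal genes was 45 of 87 within stage, 7 of 86 without the 10% of NBs with the most UMIs, 15 of 86 in cells thinned to 5000 UMIs and 3 of 86 with a score of mean logs. It was 76 of 87 with groups taken within stage and 5 classes of total UMIs (median -0.20), 76 of 86 in UMIs not used for the score (median -0.28) and 83 of 86 without the NBs highest in neuron and neuroepithelium markers. The share of all tested genes called lower was 4.08% in thinned cells, 8.79% without the 10% with the most UMIs, 9.67% within stage and total UMIs, 11.9% with mean logs and 14.1% in UMIs not used for the score. None of these settings turned the median round, while the count ran between 3 and 83.

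The lower genes outside these lists included CG43658 (FBgn0263706), at 21.5 and 18.2 CPM in high-score NBs, against 104 and 105 CPM in low-score NBs (log2 fold change -2.55, SE 0.09, adjusted p = 9.38e-41). Within stage it was at -2.35, and it was lower in 6 of 6 combinations of stage and library. The noncoding RNA lncRNA:CR33938 was at 1381 and 892 CPM, against 3566 and 3508 CPM (-1.75, SE 0.08), with 55.1% and 70.3% of its UMIs in the top 10% of high-score NBs and 62.8% and 65.4% in the top 10% of low-score NBs. lncRNA:noe was at 495 and 265 CPM, against 2377 and 394 CPM (-1.48, SE 0.13), mainly by its level in low-score NBs of experiment 1. The top 10% of low-score NBs held 77.5% and 37.4% of its UMIs. Without the NBs highest in neuron and neuroepithelium markers lncRNA:noe was at -0.30 (adjusted p = 0.016). CG3566 (-1.55, SE 0.11) and nkd, an antagonist of Wingless signalling (39.6 and 27.2 CPM, against 99.5 and 68.7 CPM, -1.42, SE 0.09), were lower in all NBs and within stage. CrebA, a regulator of secretory capacity, was at 25.9 and 24.8 CPM, against 76.9 and 61.1 CPM (-1.47, SE 0.10, adjusted p = 2.63e-23) in all NBs, and within stage it was not called (-0.05, adjusted p = 0.70).

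The interaction of group and temporal stage, late against early NBs, was tested in 8 sums. Of 6576 genes tested 48 were called (0.73%), 19 with a higher and 29 with a lower ratio in late NBs, and 593 had an unadjusted p under 0.05. Beside E2f1 and CycE, the called genes included wor, HmgD, HmgZ, His3.3B and scro, whose ratio was lower in late NBs, and Claspin, Sld5 and shg, whose ratio was higher. With a score of mean logs no gene passed (465 at an unadjusted p under 0.05), and without the library block none did (198). Groups taken within stage still differed in cell markers. There 7 of 7 neuroepithelium markers (median -3.98) and 8 of 9 neuron markers (median -3.06) were lower, against 12.5% of all tested genes. The interaction was not tested without the NBs highest in these markers, so stage and the share of such cells cannot be told apart.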

How the data were processed

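Single cells of both experiments were analysed. The authors used Cell Ranger, version 3.0.1 for experiment 1 and 3.1.0 for the other, to align 10x 3' v3 reads to Ensembl BDGP6.22, called cells with EmptyDrops and deposited raw UMI counts of 17753 genes per cell, without normalization or pooling; their notes also name Seurat 3.2.3. Genes are named by the files' FlyBase identifiers and symbols, and no coordinates are printed, since the annotation used here is of another release.

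UMIs were summed per library and group. edgeR 4.0.16 (R 4.3.3) was run with TMM, filterByExpr, the quasi-likelihood test with the library as block, and p-values of the 7263 genes tested were adjusted by the Benjamini-Hochberg method. The 5 score genes, dpn, mira, gcm and the 38 mitochondrial genes stayed in the fit without a test. Both groups of a library come from the same animals, and deviations of the 2 groups from their means correlated at 0.59 over 7286 genes, so the library pairs them. With 2 libraries there is 1 residual degree of freedom, the spread is borrowed across genes (prior degrees of freedom 81.2), and p-values measure the spread between these libraries alone, whose larvae are 2 pools. CPM are counts relative to 1000000 UMIs of a sum. On simulated counts of this comparison (7201 genes), 100 of 100 genes changed by 1 log2 unit and 60 of 100 changed by 0.5 were recovered. The changed genes had a mean above 100 UMIs per sum, and all genes were given the same dispersion (0.0045). These rates therefore do not cover sparser or more variable genes.

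Members and lists were chosen with earlier results of these data known. Named are the rule's genes, the 12 called genes in each direction with the largest change at 50 CPM or more in the higher group of both libraries with the same sign in both, 4 called genes and the most abundant gene of each of 26 lists (2 added later), and 5 interaction genes. The 20 alternatives (17 planned, 3 added after seeing the data) included DESeq2 1.42.0, other limits and scores, thinning, and groups taken within depth or stage. Sequences were not used here.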

Additional observations from a re-analysis of the deposited data

Results flagged for a closer look

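In 5 genes, named as those with the largest interaction at 50 CPM or more, the ratio of high-score to low-score NBs differed between late and early stages in edgeR's quasi-likelihood test of the interaction (8 sums, library as block). GILT1, a lysosomal thiol reductase, differed by -4.61 on the log2 scale (SE 0.81, adjusted p = 0.025): in late NBs it was at 1.24 and 0 CPM in high-score NBs, against 5.68 and 6.85 CPM in low-score NBs, and in early NBs at 48.1 and 58.1 CPM, against 64.3 and 87.3 CPM. The value for late NBs rests on a sum at 0, so its size depends on the prior count. Obp99a, an odorant-binding protein, differed by 4.03 (SE 0.75, adjusted p = 0.039), with 15.0 and 3.51 CPM in early high-score NBs, against 269 and 112 CPM in early low-score NBs, and 11.1 and 9.98 CPM in late high-score NBs, against 4.73 and 18.9 CPM in late low-score NBs. The cAMP phosphodiesterase gene dnc differed by 2.34 (SE 0.40, adjusted p = 0.021), with a log2 fold change of 0.19 in late and -2.15 in early NBs. The Snail family factor sna differed by -2.25 (SE 0.23, adjusted p = 0.0029) and turned direction, with 11.1 and 30.5 CPM in late high-score NBs, against 39.8 and 67.7 CPM in late low-score NBs, and 50.7 and 88.8 CPM in early high-score NBs, against 22.9 and 49.2 CPM in early low-score NBs. Wnt4, a Wnt ligand, differed by 2.16 (SE 0.27, adjusted p = 0.0030), with -0.16 in late and -2.32 in early NBs. Of these 5 genes only sna had opposite signs that passed the test in both stages. The same test called 10 members of the gene lists. The difference between late and early NBs was -1.26 for E2f1, also with opposite signs that passed in both stages (0.77 in early and -0.49 in late NBs). It was -1.35 for CycE, -1.38 for wor, -1.37 for scro, -0.93 for His3.3B, -0.82 for HmgZ and -0.51 for HmgD, and the log2 fold change of these 6 genes passed in early NBs only. It was 1.42 for Claspin (0.61 in early and 2.03 in late NBs, both passing), 1.95 for Sld5 (0.46 and 2.41, passing in late NBs only) and 1.64 for shg (-1.33 and 0.30, passing in early NBs only). None of these 15 genes was called with a score of mean logs or without the library block. The interaction was not tested without the NBs highest in neuron and neuroepithelium markers.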

How the results depend on the processing

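The numbers of genes higher and lower in high-score NBs, 1294 and 1363, were 1278 and 1253 with RLE size factors. Of the 17 planned settings, 10 left the number of higher genes and 12 that of lower genes within 1.5-fold. There were 429 and 551 with DESeq2, 160 and 233 in cells thinned to 5000 UMIs, 658 and 868 with the mean log score, 193 and 508 at a mitochondrial limit of 20%, 647 and 719 within stage and depth, 606 and 616 without the 10% of NBs with the most UMIs and 607 and 661 without the 10% highest each in neuron and neuroepithelium markers. The higher genes were 841 when tested on UMIs not used for the score and 851 with a score of CycB and polo. The library pairs the groups, and without this replicate block 0 and 0 genes were called. The interaction, 48 genes, gave 125 without a filter on low counts and 0 without the block or with the mean log score. With 1 library left out no test is possible, and only ratios were compared. The cause of these differences was not tested.

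Of the values for 111 named genes, 2070 held, 333 were no longer called and 22 turned round. l(1)sc had no UMI in 1 high-score sum and so no ratio there. Without the 10% highest each in neuron and neuroepithelium markers, E(spl)mdelta-HLH was at 1.29, E(spl)m4-BFM at 1.96, Rdl at 1.26, brp at 0.57, Sh at 0.16 and shg at 0.16. Rdl was at 0.64 without the 10% highest in neuron markers alone and shg at 0.44 without the 10% with the most UMIs. Within stage, elav was at -0.061, baz at -0.023 and erm at 0.027, and within stage and depth elav at -0.082, baz at -0.063, erm at 0.054 and nerfin-1 at -0.046. In thinned cells Plp was at -0.017, baz at -0.15 and twe at -0.075. nerfin-1 was at -0.25 between the top and bottom 10% and at -0.61 with the mean log score. With 1 library left out, nerfin-1 ranged between -0.056 and 1.10 and E(spl)mdelta-HLH between -1.24 and 0.013.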
